A study of Homo sapiens with 3 samples.

Results

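The CYP2C, CYP3A, CYP4, UGT2 and UGT1A gene clusters that encode enzymes of drug and fatty acid metabolism were examined in the capture design behind 3 branchpoint sequencing libraries from K562, an established line grown from a human leukaemia with erythroid and myeloid features. The clusters hold 405 of the 377858 genomic intervals in the deposited list of capture targets. An interval was counted where it lay fully inside one of 5 windows of the human genome build hg19: chr10:96440001-96830000 for the CYP2C genes, chr7:99240001-99470000 for the CYP3A genes, chr1:47260001-47620000 for the CYP4 genes, chr4:69300001-70500000 for the UGT2 genes and chr2:234520001-234690000 for the UGT1A genes. CYP2C contributed 58 intervals, CYP3A 92, CYP4 117, UGT2 115 and UGT1A 23. The windows are set by position and not by score.

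The libraries are replicates 1, 2 and 3 of a single untreated group, described in the labels as biological replicates, so the study compares no conditions. The target list is shared by all 3 and holds no value per library. Each interval has a position, a running number and a score, a whole number from 0 to 125 over the whole list. What the score measures was not given in the sources used here. Read depth was not analysed here. Counts and shares over the list are therefore a census with no replicate error, and no test was run. Clusters were compared by their values, set beside 250 kb on each side, their own chromosome and the whole list.

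During splicing, the 5′ end of an intron is joined to a branchpoint base near its 3′ end, so both ends of an intron are needed to read the join. Per the labels' protocols, the design took 100 nt from either end of introns in GENCODE release 12 and left out exons and sequence strongly transcribed in K562. An exon thus stands as a gap between a pair of targets. Cytochrome P450 enzymes oxidise drugs, steroids and fatty acids, and UDP-glucuronosyltransferases (UGTs) attach glucuronic acid to drugs, bilirubin and steroids so that they can be excreted. Most are liver or gut enzymes, and their genes lie in tandem arrays of copies. UGT1A differs in structure from the others, since alternative first exons are each spliced to one shared set of later exons.

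The gaps that the design left around exons carried a pattern shared by the gene copies of a cluster. In UGT2 and UGT1A, the gaps of 133, 89 and 221 nt followed one another in either reading direction, with an intron's gap between each and the next. A copy with more or fewer targets between these exons was not counted. This series was found 9 times in the whole list, 8 times in UGT2 and once in UGT1A. Each gap was 1 nt longer than the exon inside it. The middle exon, 88 nt in each of the 9 genes compared, is printed to show that the copies keep the same length while their bases differ. The sequences are those of the GENCODE release 29 transcripts, in the direction of each gene. Capitals mark bases that differ from UGT2B7, which encodes an enzyme that glucuronidates morphine. The gaps lie at chr4:69972893-69972981 for UGT2B7 (plus strand), chr4:70155383-70155471 for UGT2B28 (plus strand), chr4:69520812-69520900 for UGT2B15 (minus strand), chr4:70460879-70460967 for UGT2A1 (minus strand) and chr2:234676495-234676583 for UGT1A1 (plus strand). The exon is coding and is number 4 of 6 in the UGT2 genes and number 3 of 5 in UGT1A1, the bilirubin-conjugating enzyme.
UGT2B7: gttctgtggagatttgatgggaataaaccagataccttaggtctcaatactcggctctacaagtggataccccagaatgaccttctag
UGT2B28: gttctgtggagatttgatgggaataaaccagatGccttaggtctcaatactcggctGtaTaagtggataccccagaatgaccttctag
UGT2B15: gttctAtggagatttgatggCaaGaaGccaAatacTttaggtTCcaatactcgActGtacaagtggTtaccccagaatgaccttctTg
UGT2A1: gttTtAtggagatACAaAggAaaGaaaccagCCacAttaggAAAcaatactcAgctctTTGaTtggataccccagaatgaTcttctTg
UGT1A1: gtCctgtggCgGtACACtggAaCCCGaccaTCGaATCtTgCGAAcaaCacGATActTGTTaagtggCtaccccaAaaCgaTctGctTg

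Against UGT2B7, the exon differed at 3 bases in UGT2B28, 12 in UGT2B15, 21 in UGT2A1 and 38 in UGT1A1. Over the 36 pairs among the 9 genes compared, identity ran from 55.7% to 98.9%. The exon kept its 88 nt in the shared UGT1A exons on chromosome 2 as well as in the UGT2 copies on chromosome 4.

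In CYP4, whose enzymes hydroxylate fatty acids at their last carbon, the series was 143, 46 and 129 nt. It occurred 5 times in the whole list, all in this cluster. The exon inside the 46 nt gap has 45 nt and is number 3 of 12. It is shown because 46 nt is the shortest gap of the cluster. Capitals mark differences from CYP4A22. The gaps lie at chr1:47607243-47607288 for CYP4A22 (plus strand), chr1:47402973-47403018 for CYP4A11 (minus strand), chr1:47546295-47546340 for CYP4Z1 (plus strand), chr1:47352922-47352967 for CYP4Z2P (minus strand, an annotated pseudogene) and chr1:47497108-47497153 for CYP4X1 (plus strand). The exon is coding in each except CYP4Z2P.
CYP4A22: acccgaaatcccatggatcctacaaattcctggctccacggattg
CYP4A11: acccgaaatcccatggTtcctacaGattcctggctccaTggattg
CYP4Z1: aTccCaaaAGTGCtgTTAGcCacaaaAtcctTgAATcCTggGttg
CYP4Z2P: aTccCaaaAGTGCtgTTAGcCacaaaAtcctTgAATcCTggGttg
CYP4X1: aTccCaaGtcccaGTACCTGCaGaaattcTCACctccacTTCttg

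CYP4Z1 and its pseudogene had the same 45 bases, and each differed from CYP4A22 at 20 of them. CYP4A11 differed from CYP4A22 at 3 bases.

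In CYP3A, a family that oxidises a large share of prescribed drugs, the series was 228, 162 and 68 nt and occurred 3 times in the list, all in this cluster. The gap of 68 nt surrounds exon 9 of 13, a coding exon of 67 nt, and is shown because the single highest score of all 5 clusters lies beside its copy in CYP3A7, a form known from fetal liver. Capitals mark differences from CYP3A4, the main adult form. The gaps lie at chr7:99363999-99364066 for CYP3A4 (minus strand), chr7:99311091-99311158 for CYP3A7 (minus strand) and chr7:99454456-99454523 for CYP3A43 (plus strand).
CYP3A4: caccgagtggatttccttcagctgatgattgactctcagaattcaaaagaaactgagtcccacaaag
CYP3A7: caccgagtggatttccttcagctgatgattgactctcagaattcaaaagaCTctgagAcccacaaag
CYP3A43: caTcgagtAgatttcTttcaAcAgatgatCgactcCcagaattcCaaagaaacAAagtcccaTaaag

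CYP3A7 differed from CYP3A4 at 3 of the 67 bases and CYP3A43 at 11.

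In CYP2C, where CYP2C19 acts on proton pump inhibitors, the series was 162, 178 and 143 nt. It occurred 9 times in the list. Of these, 3 lay in the cluster, at CYP2C18, CYP2C19 and CYP2C8, and 6 lay outside it. The 6 others matched CYP2J2 on chromosome 1 and CYP2A6, CYP2A7, CYP2B7P, CYP2B6 and CYP2A13 on chromosome 19, all members of the CYP2 family. The exon in the 162 nt gap, number 4 of 9, is coding and 161 nt long. It is printed for CYP2C19 and CYP2C18, which lie next to each other on the same strand, with capitals at the differences from CYP2C19. The gaps lie at chr10:96540256-96540417 for CYP2C19 and chr10:96454674-96454835 for CYP2C18, both on the plus strand.
CYP2C19: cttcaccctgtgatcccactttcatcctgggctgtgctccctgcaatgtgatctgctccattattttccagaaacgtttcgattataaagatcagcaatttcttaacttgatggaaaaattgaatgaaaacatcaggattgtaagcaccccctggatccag
CYP2C18: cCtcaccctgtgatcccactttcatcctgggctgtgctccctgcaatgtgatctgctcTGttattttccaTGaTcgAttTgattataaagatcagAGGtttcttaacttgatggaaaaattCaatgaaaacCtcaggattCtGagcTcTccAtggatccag

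The pair differed at 18 of 161 bases, and CYP2C8, on the minus strand, differed from CYP2C18 at 16. The 4 gap series were picked after the recurring gaps had been seen, and their counts over the list describe them without a test.

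Most intervals of the clusters scored 0. A score above 0 was carried by 45 of 405 intervals (11.1%), against 52.8% of all intervals in the list. The mean score was 0.328 in the clusters and 6.80 in the whole list. No interval of the clusters scored above 10, a value that 17.0% of the list exceeded. The clusters were not alike, and CYP3A stood apart from the other 4.

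In CYP3A, 30 of 92 intervals (32.6%) scored above 0, with a mean of 1.13, an upper quartile of 1 and a maximum of 10. CYP4 followed with 8 of 117 (6.84%), a mean of 0.162 and a maximum of 8. UGT2 had 6 of 115 (5.22%), a mean of 0.0783 and a maximum of 3. In CYP2C 1 of 58 intervals (1.72%) scored above 0, with a score of 1, and in UGT1A none of 23 did. The median was 0 in every cluster. Each cluster lay below its own chromosome: the share above 0 was 49.04% on chromosome 10 (CYP2C), 52.2% on chromosome 7 (CYP3A), 54.5% on chromosome 1 (CYP4), 42.97% on chromosome 4 (UGT2) and 48.3% on chromosome 2 (UGT1A).

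**Figure D1:**
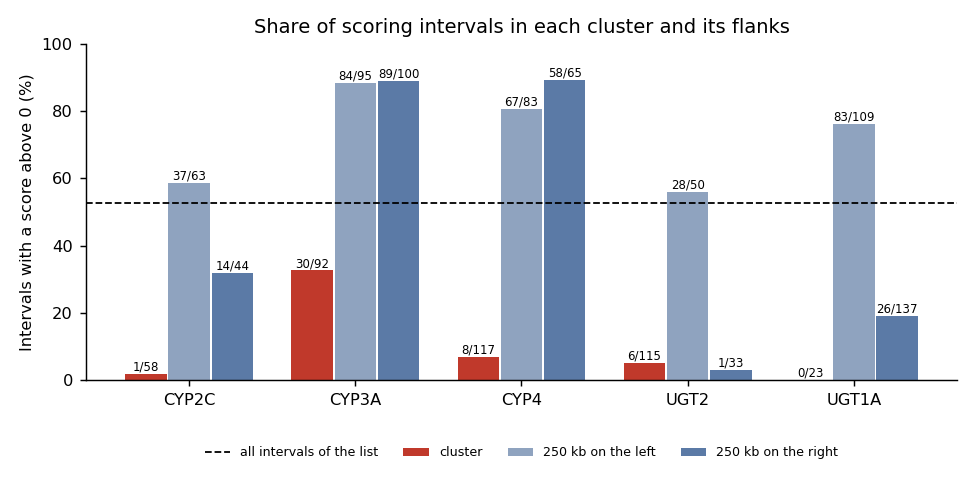
Share of intervals with a score above 0 (percent, vertical axis) in each cluster (red), in the 250 kb to its left and right (light and dark blue, lower and higher coordinates), with the counts above the bars; the dashed line is the whole list. CYP3A reaches 32.6%, and every cluster lies below its flanks except UGT2, which lies above its right flank (6 of 115 against 1 of 33).

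Scores within the CYP3A cluster lay mainly at a pair of adjacent genes. CYP3A5, a form expressed in liver and gut of some adults, had 20 intervals, of which 15 scored above 0, with a median of 2 and a maximum of 9. CYP3A7 had 21 intervals, all of which also matched CYP3A7-CYP3A51P, an annotated gene that overlaps it. Of the 21, 11 scored above 0, with a median of 1 and a maximum of 10. By contrast, 1 of 23 intervals at CYP3A4 scored above 0, with a score of 1, and 3 of 26 at CYP3A43, with scores of 4, 2 and 1. A stretch of 23 consecutive intervals, chr7:99361639-99436522, scored 0 and ran from CYP3A4 into CYP3A43.

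The highest score of any cluster, 10, belonged to chr7:99310991-99311090, the 5′ end of the CYP3A7 intron that follows exon 9. The target on the other side of that exon, chr7:99311159-99311258 at the 3′ end of the preceding intron, scored 8. In CYP3A4 and CYP3A43 the targets around the copies of exon 9 scored 0. The series of 228, 162 and 68 nt spans 6 targets in each gene: their scores ran from 1 to 10 in CYP3A7, with a median of 4.5, from 0 to 1 in CYP3A4, and were all 0 in CYP3A43. In CYP3A5 the highest score was 9, at chr7:99264123-99264222, the 5′ end of an intron. It was followed by the narrowest target of the cluster, chr7:99264313-99264335 (23 nt, score 5), and the widest, chr7:99264434-99264573 (140 nt, score 6). Both of these were matched as holding 5′ and 3′ intron ends together. CYP3A5 therefore scored over much of its length, with values of 4, 2, 4, 7, 6, 9, 5, 6 and 2 at consecutive scoring targets of the stretch chr7:99258283-99264788.

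**Figure D2:**
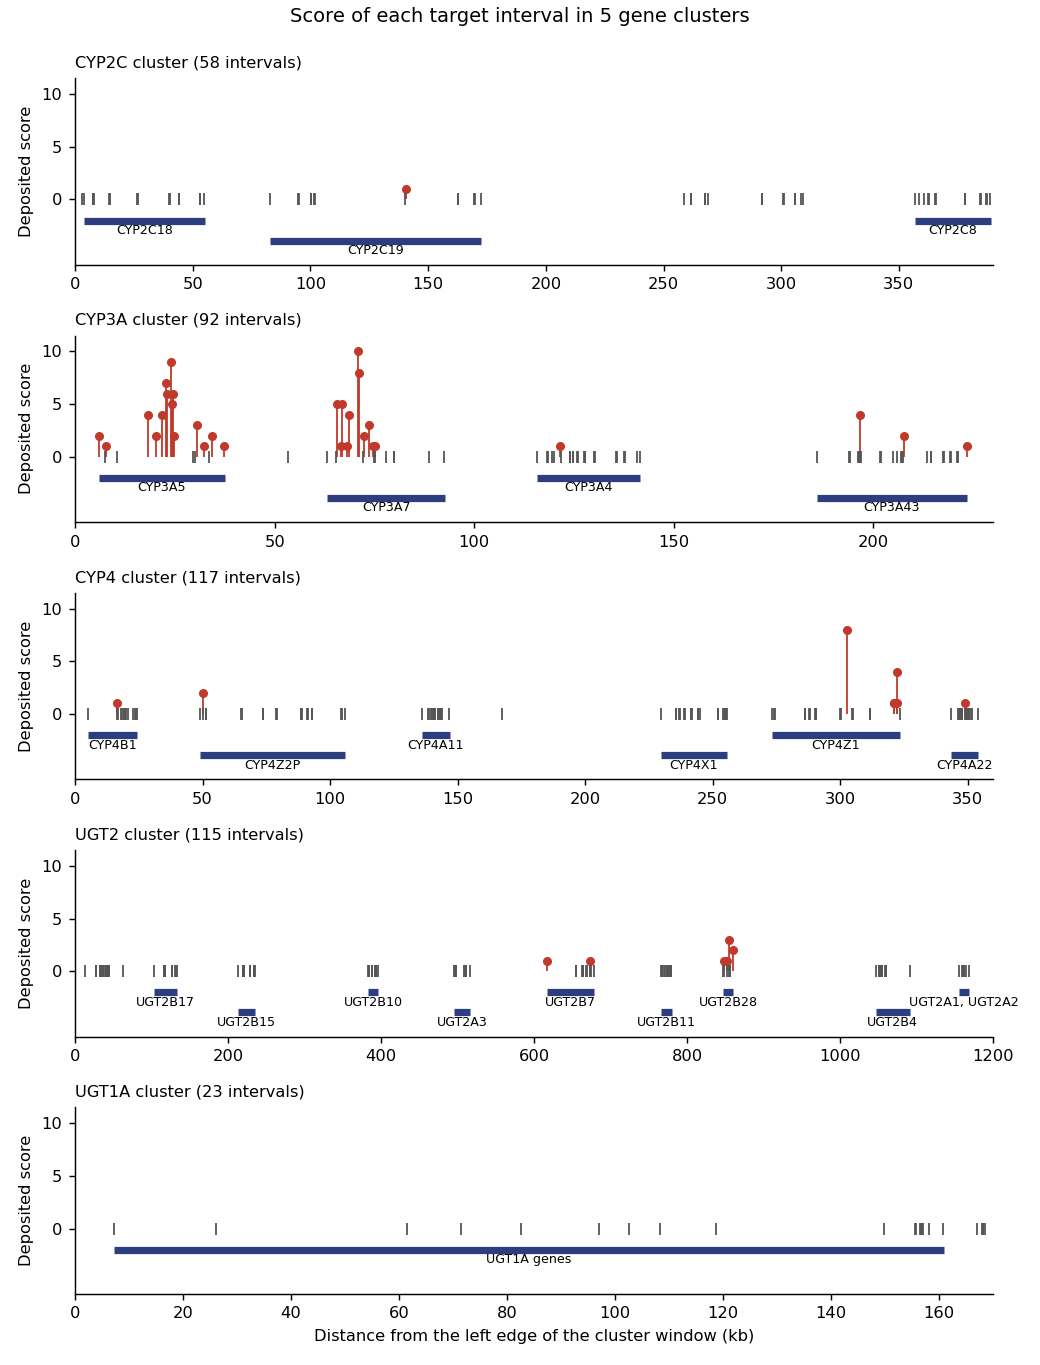
Deposited score (vertical axis, no unit given) of every interval against its distance from the left edge of the cluster window (kb), 1 panel per cluster. Red points are scores above 0, grey ticks are scores of 0, and blue bars span the targets matched to each gene. The red points of CYP3A gather at CYP3A5 and CYP3A7, while UGT1A has none.

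In the CYP4 cluster, 4 of 21 intervals at CYP4Z1 scored above 0, with values of 1, 1, 4 and 1 near its 3′ end. The score of 4 belonged to chr1:47582222-47582321. One interval each scored above 0 at CYP4B1, a lung-expressed form (score 1), at CYP4Z2P (score 2, chr1:47310287-47310386) and at CYP4A22 (score 1). None did at CYP4A11 or CYP4X1. The highest score of the cluster, 8, lay at chr1:47562850-47562949, between the targets at the ends of CYP4Z1 intron 7. That interval matched no listed gene's intron ends. Without it and the other unmatched interval, the CYP4 mean was 0.0957. A run of 69 consecutive intervals, chr1:47311235-47560442 (249.2 kb), scored 0.

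In UGT2, scores above 0 were found at UGT2B28 and UGT2B7, which lie on either side of UGT2B11. UGT2B28 had 4 of 10 intervals above 0, with values of 1, 1, 3 and 2, and the 3 belonged to chr4:70155283-70155382, directly before the exon printed above. UGT2B7 had 2 of 13 above 0, both with a score of 1. The other UGT2 genes, among them UGT2B15 and UGT2B17, which act on androgens, and UGT2A1, known from the nasal epithelium, scored 0 throughout. The first 60 intervals of the window, over 503.5 kb, all scored 0. In CYP2C the single score of 1 lay at chr10:96580396-96580495, the 5′ end of a CYP2C19 intron that also matched AL583836.1, an annotated gene spanning CYP2C18 and CYP2C19. The UGT1A intervals lay in a run of 27 intervals with a score of 0 that extended past the window.

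Scores above 0 were found at intron ends of either kind. Of 174 intervals matched to 5′ intron ends alone, 16 scored above 0, with a summed score of 41. Of 178 matched to 3′ ends alone, 25 did, with a summed score of 72. CYP3A supplied 10 of the 16 scoring 5′ ends, with a sum of 35, and 18 of the 25 scoring 3′ ends, with a sum of 58.

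Genes beside the clusters often scored where the clusters did not. In the 250 kb around CYP3A, 84 of 95 intervals on the left and 89 of 100 on the right scored above 0. The flanks of CYP4 had 67 of 83 and 58 of 65. For CYP2C the counts were 37 of 63 on the left and 14 of 44 on the right, and for UGT1A 83 of 109 and 26 of 137. UGT2 was flanked by 28 of 50 scoring intervals on the left and 1 of 33 on the right, so that its right flank scored no more often than the cluster.

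The change could be followed from gene to gene. TAL1, a transcription factor of the erythroid lineage to the right of CYP4, scored from 5 to 102 at all 7 intervals, with a median of 22. PDZK1IP1, between CYP4 and TAL1, had 4 of 7 above 0, with a median of 1. To the left of CYP4, EFCAB14 scored above 0 at 18 of 18. On either side of CYP3A lay the zinc-finger gene ZSCAN25, with 9 of 9 above 0, and TRIM4, with 12 of 12. TMEM225B, next to ZSCAN25 on the far side, had 3 of 10 above 0, with a median of 0. PDLIM1, a cytoskeletal adaptor beyond CYP2C, scored from 7 to 89 at all 10 intervals, but ACSM6, which lies between it and CYP2C, had 0 of 20 above 0. HELLS, a chromatin remodeller on the left of CYP2C, had 28 of 40. To the left of UGT2, YTHDC1, a reader of methylated RNA, had 26 of 28, whereas SULT1B1, a sulfotransferase to the right, had 0 of 14. Beside UGT1A, HJURP, a centromere protein, had 15 of 15 above 0, MROH2A had 7 of 72 and USP40 had 33 of 57. These neighbours were matched by the same distances as the cluster genes. The match of TAL1 rests on 4 edges, the fewest allowed, against 2 at the next best shift.

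Target density differed between the clusters. Targets covered 39.6 kb per Mb in CYP3A, 32.05 in CYP4, 15.4 in CYP2C, 13.5 in UGT1A and 9.58 in UGT2, against 12.5 over the whole list. The flanks had 36.0 kb per Mb on the left and 38.8 on the right for CYP3A, and 31.5 and 25.6 for CYP4. UGT1A was sparser than its flanks, at 42.4 on the left and 54.8 on the right. UGT2 had 19.8 and 12.95 beside it, and CYP2C 25.07 and 17.9. The low density of UGT2 went with long spaces between genes: its longest gap, 186381 nt, separated chr4:70160148-70160247 at UGT2B28 (score 2) from chr4:70346629-70346728 at UGT2B4 (score 0). The longest gaps elsewhere were 86119 nt in CYP2C, 62138 nt in CYP4, 44178 nt in CYP3A, between CYP3A4 and CYP3A43, and 35312 nt in UGT1A, between the first-exon targets of UGT1A10 and UGT1A9. No running number was skipped within any cluster, against 1.24% of the numbers (4753 of 382611) in the whole list.

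Targets of exactly 100 nt made up 99.1% of UGT2, 95.7% of UGT1A, 94.6% of CYP3A, 88.0% of CYP4 and 87.9% of CYP2C, against 87.7% of the whole list. In UGT2 the widths ran from 99 to 100 nt, and in UGT1A from 100 to 101 nt. CYP3A widths ran from 23 to 140 nt and CYP2C widths from 78 nt to 191 nt at chr10:96447691-96447881. CYP4 had the widest spread, between the 10 nt interval chr1:47581101-47581110 at the 3′ end of a CYP4Z1 intron (score 1) and the 145 nt interval chr1:47611604-47611748 (score 0). CYP4 and UGT1A lie on chromosomes 1 and 2, where widths of 96 to 99 nt are common, but neither held any, in 117 and 23 intervals. The flanks held 30 of 148 (20.3%) for CYP4 and 9 of 246 (3.66%) for UGT1A. Among flank intervals that scored 0, the counts were 1 of 23 (4.35%) for CYP4 and 1 of 137 (0.730%) for UGT1A. Such widths were rarer among targets with a score of 0: on chromosome 1 they were 15.9% of intervals scoring above 0 and 4.20% of those scoring 0, and on chromosome 2 17.3% and 1.78%. The part of the score in this difference was not tested.

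Gaps of at most 1000 nt had medians of 164 nt in CYP2C, 142 nt in CYP3A, 143 nt in CYP4, 150 nt in UGT2 and 158 nt in UGT1A, against 148 nt in the list. In every cluster but UGT1A, some lengths recurred. The lengths named were picked because they occurred 3 times or more in a cluster, so their shares there and in the list are no test. No other gene cluster was searched for recurring lengths. In UGT2, the gap of 133 nt occurred 10 times among 58, and those of 89, 150 and 221 nt 8 times each. This length made up 17.2% of these gaps in UGT2 and 0.540% in the list. In CYP2C, 143 nt occurred 6 times (22.2% against 0.423%), 162 and 189 nt 4 times each, and 164 and 178 nt 3 times each. The commonest in CYP4 were 156 nt (7 times), 129 and 143 nt (6 times each), 46 and 66 nt (5 times each) and 84 nt (4 times), with 126 and 135 nt 3 times each. In CYP3A, 5 lengths occurred 3 times each, namely 68, 115, 150, 162 and 228 nt. In UGT1A no length occurred 3 times, and the later exons that its genes share were bracketed once each.

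**Figure D3:**
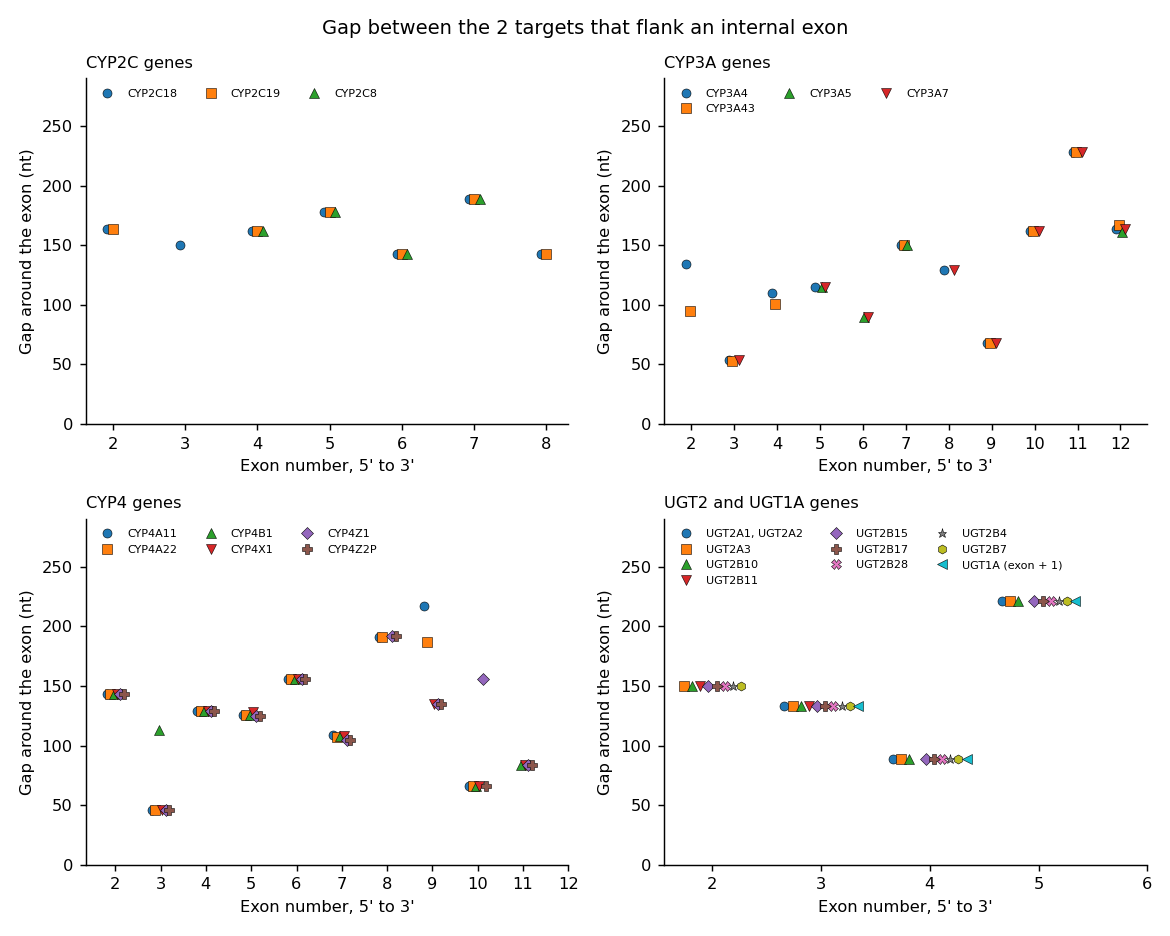
Gap (nt, vertical axis) between the targets that flank an internal exon, against the exon's number in its gene from the 5′ end, with 1 symbol per gene and exons plotted only where targets flank both sides. UGT1A exons are moved by 1 so that they stand beside the UGT2 exons of the same length. Symbols of different genes fall on the same heights, at 150, 133, 89 and 221 nt in UGT2.

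Gap lengths followed annotated exon lengths. Of 143 internal exons flanked by targets on both sides, 126 (88.1%) had a gap exactly 1 nt longer than the exon in GENCODE release 29, including all 33 in UGT2. The genes were placed where the most intron edges were met with that 1 nt offset, so this share is not independent of the placement. In the clusters, 16.1% of the 143 exons had a length that is a multiple of 3. The commonest remainder of a gap after division by 3 also differed from the list: among gaps of 30 to 400 nt, a remainder of 1 was left by 24.5% in UGT2, 18.2% in CYP2C, 15.4% in CYP3A and 12.3% in CYP4, against 38.0% over the list. In CYP4, 58.5% left 0. UGT1A had only 6 such gaps, of which 3 left 1.

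The extra 1 nt lay at one side of the exon. The 5′ and the 3′ intron boundaries of each gene were placed on the list separately, with no offset assumed. UGT2A2 and the UGT1A genes other than UGT1A1 were left out, because they share targets with UGT2A1 and UGT1A1. In all 24 genes kept, the 5′ placement lay 1 nt further into the intron than the 3′ placement. Between genes on opposite strands, the 3′ placements had the annotated distance in all 32 pairs, whereas the 5′ placements were off by 2 nt in all 32. In 31 pairs of genes on the same strand, both kinds had the annotated distance in all 31. A 3′ target thus usually stopped at the annotated last base of the intron. A 5′ target usually started 1 nt inside the intron, on either strand. Some targets departed from this. The gap around exon 3 of CYP2C18 equalled the exon's 150 nt, and that around exon 2 of CYP3A4 was 40 nt longer than the exon. A gene enters several pairs, so the pairs are not independent.

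Between copies, the gaps around exons recurred and intron spans seldom did. In UGT2, all 120 exon gaps compared over 36 pairs of genes were equal, and of 156 introns none spanned the same distance in both genes. The counts were 25 of 27 exon gaps and 0 of 34 introns in CYP2C. They were 19 of 28 and 0 of 41 in CYP3A, and 82 of 127 and 5 of 139 in CYP4. An unequal gap need not mean an unequal exon. Exon 2 has 94 nt in both CYP3A4 and CYP3A43, with gaps of 134 and 95 nt. The longest series of equal gaps between copies was 8 gaps in CYP4, where it ran in opposite directions in CYP4Z1 and CYP4Z2P. In CYP3A it was 3 gaps. In CYP2C a series of 6 equal gaps recurred, and in UGT2 a series of 4. These ran past the end of a gene into the next, so they are not series within a copy.

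The 5 equal introns of CYP4 came from the pairs CYP4A11 with CYP4A22 and CYP4Z1 with CYP4Z2P, each on opposite strands. CYP4A11 and CYP4A22 had 4 of 10 introns of equal span and 7 within 5 nt, with a median difference of 1.5 nt. The span of intron 1, for instance, was 3100 nt in CYP4A11 and 3098 nt in CYP4A22, and that of intron 2 was 648 nt in both. In intron 8 the targets stopped short of the annotated 96 nt by the same amount in both genes and spanned 44 nt. CYP4Z1 and CYP4Z2P had 1 of 10 equal and 4 within 5 nt. Their intron 4 spanned 2157 nt in CYP4Z1 and 2158 nt in CYP4Z2P, but intron 9 spanned 9176 nt and 13924 nt. In UGT2, intron 2 spanned 4092 nt in UGT2B10, 4089 nt in UGT2B11 and 4088 nt in UGT2B28, and 4899 nt in UGT2B15 and 4902 nt in UGT2B17. Intron 3, in contrast, spanned 4006 nt in UGT2B10 and 2780 nt in UGT2B28. In CYP2C, intron 4 spanned 1160 nt in CYP2C19 and 11705 nt in CYP2C18, and intron 2 spanned 168 nt in CYP2C19 and 191 nt in CYP2C18.

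**Figure D4:**
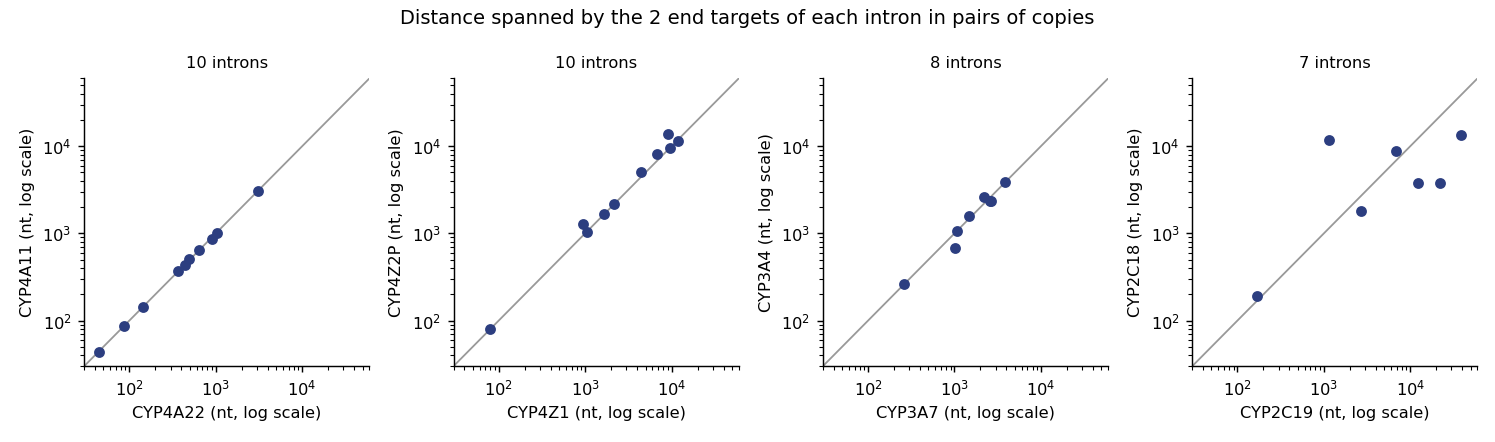
Distance spanned by the pair of end targets of each intron (nt, log scale on both axes) in 4 pairs of gene copies, 1 point per intron; the grey line marks equal spans. CYP4A11 and CYP4A22 lie on the line, with 7 of 10 introns within 5 nt, while CYP2C19 and CYP2C18 have none of 7 introns within 5 nt.

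Most introns of the clusters had a target at both ends. Over the principal transcripts of the 33 listed genes, with shared introns counted once, 178 of 204 introns (87.3%) had both ends targeted, 14 had the 3′ end alone, 6 the 5′ end alone and 6 neither. For introns of the whole design, the labels give 76.4% with both ends and 90.2% with at least 1, over another set of introns. The share was 12 of 12 in UGT1A, 42 of 46 in UGT2, 60 of 66 in CYP4, 27 of 32 in CYP2C and 37 of 48 in CYP3A. Introns without a target at either end were intron 2 of CYP2C8, a form that acts on paclitaxel, introns 3 and 8 of CYP3A5, intron 5 of CYP3A43, and intron 1 of UGT2A1 and of UGT2A2. The 5′ ends of those UGT2A introns lie beyond the window. CYP3A5, which scored most often, was also the gene with the fewest of its introns covered at both ends in its cluster, 7 of 12. UGT2B11 had 3 of 5, UGT2A1 and UGT2A2 had 4 of 5 each, and the other 7 UGT2 genes had all 5.

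**Figure D5:**
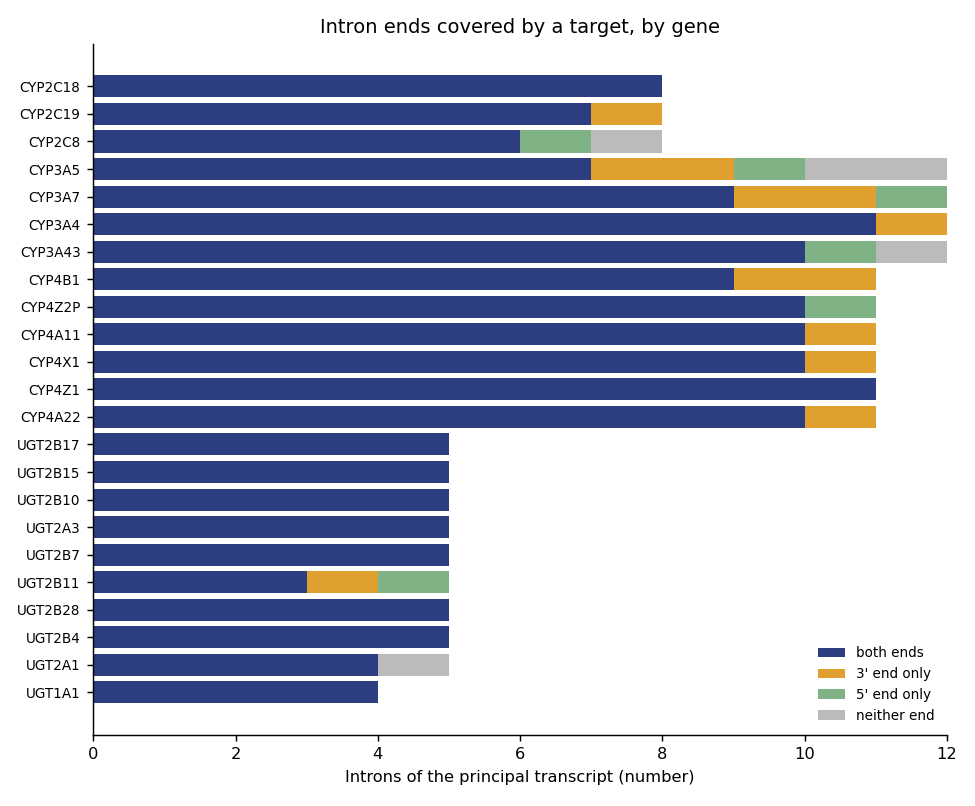
Number of introns of each gene's principal transcript (horizontal axis) with targets at both ends (blue), at the 3′ end alone (orange), at the 5′ end alone (green) or at neither (grey). Genes that share introns with those shown (UGT2A2 and the other UGT1A genes) are left out. The UGT2 genes have both ends of all 5 introns targeted except UGT2B11 (3) and UGT2A1 (4), and CYP3A5 has 7 of 12.

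Not all intervals belonged to the listed genes. Of 405, 371 were matched to an intron end of one of the 33 genes, 23 to another gene alone and 11 to none. In UGT2, 18 intervals at the left edge matched TMPRSS11E, a serine protease gene, and 4 matched AC111000.4, annotated as antisense, inside UGT2B11. All 22 scored 0. In CYP3A, 1 interval matched CYP3A7-CYP3A51P alone and scored 0. The AC111000.4 match rests on 4 of its 10 edges, the fewest allowed, against 2 at the next best shift. The 11 unmatched intervals included 5 at the right edge of the UGT1A window, from chr2:234687129-234687228 to chr2:234688500-234688599, and all 11 scored 0 except the CYP4 interval with a score of 8.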

How the data were processed

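The authors deposited 1 list of capture targets in hg19 coordinates, common to 3 K562 libraries. Per the labels' protocols it was drawn from GENCODE release 12 with exons, strongly transcribed regions and repeats left out. The deposited score is a whole number whose normalisation was not given in the sources used here, so no count model was fitted, and depth is unknown. The submitters' processing notes name hg19, Bowtie2, TopHat2 and bedtools.

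Intervals fully inside each window were taken, with coordinates written 1-based. Members and gene lists were chosen with earlier results of these data known. No hg19 annotation was used. A gene was matched by placing its GENCODE release 29 intron edges at the one shift that met the most interval edges within the cluster, using lengths within the gene only, with the 5′ edge moved inwards by 1 nt. All 33 listed genes were placed, with 438 of 560 edges (78.2%) met at the best shift and at most 4 at the next best for any gene. Edges that several genes share, as in UGT1A, were counted for each of those genes. The planned rule named a gene by at least 4 consecutive gaps equal to exon lengths plus 1 nt without a tie. It named CYP3A43 and CYP4Z2P alone, so matching by distances within the gene was added after the data were seen. Named intervals were the 3 highest scores, the widest, the narrowest and those at the longest gap of each cluster, and gaps of at most 1000 nt found 3 times or more. Other intervals, neighbouring genes and the gap series were picked after their values were seen. Tables were made with pandas 2.3.3 and numpy 2.4.6 under Python 3.11.15, and plots with matplotlib 3.10.9. A listed gene is not reported here by itself, and its intervals stay in the counts of its cluster.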

Additional observations from a re-analysis of the deposited data

How the results depend on the processing

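Of 113 recomputed values, 95 stayed within the spread allowed and 18 moved. For counts, means, densities and gap series the spread was a fixed ratio to the main value. For shares, median gaps and matched edges it was a 95% interval that treats the members counted as independent. Neighbouring intervals share a gene, so it measures no replicate error. The UGT1A scoring share of 8.60% in the widened window counted as unmoved from 0%, since its interval ran to 14.8%. Counting only scores of 2 or more, the scoring share was 0% in CYP2C, 22.8% in CYP3A, 2.56% in CYP4 and 1.74% in UGT2. Windows widened by 50 kb on each side gave CYP3A a mean score of 2.53 and a scoring share of 44.0%, CYP4 a mean of 0.443 and a share of 15.0%, and UGT1A 93 intervals with a mean of 0.129. With intervals at listed genes only, an alternative chosen after seeing the data, the CYP4 mean was 0.0957 and the full-width share of UGT2 100%. Allowing 5 nt around 100 nt made that share 100% in UGT2 and in UGT1A. The longest CYP3A gap series was 5 gaps when 3 nt of difference were allowed. Intron edges met, also chosen after seeing the data, were 44.6% with the 5′ edge not moved, 42.0% with it moved by 2 nt and 88.6% over principal transcripts. CYP3A kept the highest mean score and scoring share under each alternative run. No paired analysis was possible because the list holds no value per library, and no replicate could be left out for the same reason. The score's unit and the depth behind it are unknown, so a score of 0 was not read as absence of RNA.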
